A study of Mus musculus with 23 samples.

Results

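The genotype by treatment interaction in the ileum was examined, that is, the extent to which the transcriptional response to pregnenolone 16α-carbonitrile (PCN) depended on the pregnane X receptor (PXR, gene *Nr1i2*). It was chosen by design and not by any measured value. All 23 of the 23 arrays of the series entered it, namely 6 from wild-type oil-treated mice (WT CONT), 5 from wild-type PCN-treated mice (WT PCN), 6 from oil-treated mice without PXR (*Pxr*-/- CONT) and 6 from PCN-treated mice without PXR (*Pxr*-/- PCN). The interaction is the PCN change in WT (WT PCN minus WT CONT) minus the PCN change in *Pxr*-/- (*Pxr*-/- PCN minus *Pxr*-/- CONT), so that a positive value means a larger increase, or a smaller decrease, in WT. On the log2 scale used throughout, 1 unit is a doubling of the signal.

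All animals were males on the C57BL/6J background. WT mice came from Charles River at 6 weeks of age, whereas *Pxr*-/- mice, backcrossed to that strain, came from a colony kept in house for 10 years. Genotype and breeding origin therefore cannot be told apart, and the loss of PXR was present in every tissue. After 2 weeks of acclimatization, 6 mice per group were allocated to PCN in corn oil, given daily into the abdomen at 100 mg/kg over 4 days, or to the oil alone. Mice were killed at zeitgeber time 6, when 6 h had passed since the last PCN injection. Each array came from a separate mouse, and the pieces of ileum held all cell types of the gut wall.

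PXR is a nuclear receptor that pairs with the retinoid X receptor on DNA when a ligand is bound. It is best known for the control of enzymes and transporters that clear foreign chemicals, and PCN is a classic ligand of the rodent receptor. In this pathway, cytochrome P450 enzymes oxidize a compound, carboxylesterases split its esters, transferases attach glutathione or glucuronic acid, and ATP-driven pumps carry the products out of the cell. In the gut these steps take place mainly in absorptive enterocytes.

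Of 24151 genes tested (array transcripts without a symbol included), 25 were called for the interaction, 24 with a larger PCN change in WT and 1, *Abca8b*, in the opposite direction. The call required a Benjamini-Hochberg adjusted p of at most 0.05 in limma and a difference of more than 1.5-fold at 1 or more probes, and it was met by 0.104% of the genes tested (0.0994% higher and 0.00414% lower in WT). The largest values belonged to *Cyp3a41a* (4.06 ± 0.56, estimate ± SE), *B3galt5* (3.97 ± 0.75), *Cyp2b10* (3.89 ± 0.50), *Cyp2b9* (3.80 ± 0.41), *Cyp3a16* (3.75 ± 0.48), *Cyp3a11* (3.58 ± 0.44) and *Cyp3a44* (3.11 ± 0.56). Apart from *B3galt5*, these are drug-oxidizing P450 enzymes. The values of *Cyp2b9* and *Cyp3a16* are fitted ones with no exact size or rank, since their probes were well above background on few or none of the *Pxr*-/- arrays. The unadjusted p was under 0.05 at 1689 of 37591 probes, the adjusted p was at most 0.05 at 31, and 29 probes also passed the fold threshold. The median interaction over all genes was -0.01, with 47.2% of genes above 0 and a median SE of 0.141.

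The PCN effect within each genotype was called for far more genes than the interaction. The interaction is a difference of 2 changes and is less precise. Its median SE was 0.141, against 0.102 for PCN in WT and 0.0974 for PCN in *Pxr*-/-. The numbers of genes called therefore cannot be compared directly. It was called for 226 genes in WT (0.936%) and for 316 genes in *Pxr*-/- (1.31%), although without *Pxr*-/- PCN replicate 5 the latter number was 206. By the brightest probe of each gene, 96 genes were called for PCN in both genotypes, all in the same direction, and the interaction was called for 0 of these. For 93 of the 96 the 95% interval of the interaction included 0, and the median size of interaction of the 96 was 0.17, regardless of sign. Its median SE in these genes was 0.25. A call in both genotypes favours genes with similar changes, so equal responses are not shown. A further 110 genes were called in WT and not in *Pxr*-/-, and the interaction was called for 20 of them. For 43 of the 110 its interval included 0, so that a call in WT and none in *Pxr*-/- did not by itself show a genotype difference. Of the 192 genes called in *Pxr*-/- and not in WT, 0 had a called interaction, 134 had an interval that included 0, and 179 moved in the same direction in WT. The interaction is computed from the same arrays as both PCN effects, so these counts describe 1 set of measurements from 3 sides.

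**Figure D1:**
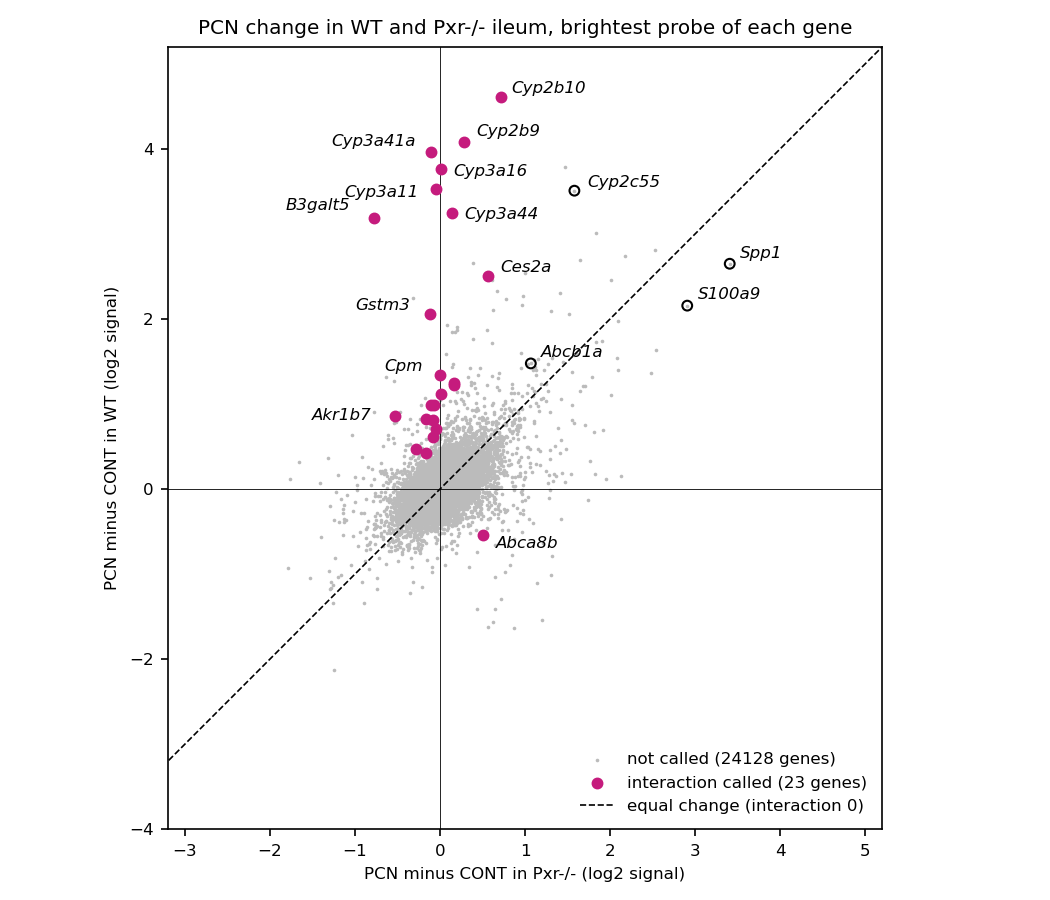
Each point is a gene at its brightest tested probe, with the PCN change in *Pxr*-/- on the x axis and the PCN change in WT on the y axis, both as differences in log2 signal. The 23 genes called at that probe (magenta) lie away from the dashed line of equal change, with *Cyp3a* and *Cyp2b* genes near 0 on the x axis and above 3 on the y axis, while *Spp1* and *S100a9* (open circles, not called) lie at high values on both axes.

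Among the 24 genes higher in WT, 22 were called for PCN in WT and 0 in *Pxr*-/-, at the called probe with the largest interaction. The 95% interval of the PCN change in *Pxr*-/- included 0 for 17 of them, lay above 0 for 2 (*Cyp2b10* and *Ces2a*) and lay below 0 for 5 (*Plb1*, *Akr1b7*, *Alas1*, *Elovl6* and *Kcnn2*). All 5 WT PCN arrays were above all 6 WT CONT arrays for 23 of the 24 genes. Over the 22 higher genes that were called at their brightest probe, the median PCN change was 1.23 in WT and -0.06 in *Pxr*-/-, where it ranged from -0.78 to 0.72. The rule for a call selected these genes for such a difference, so these counts and medians are a description and no further test.

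**Figure D2:**
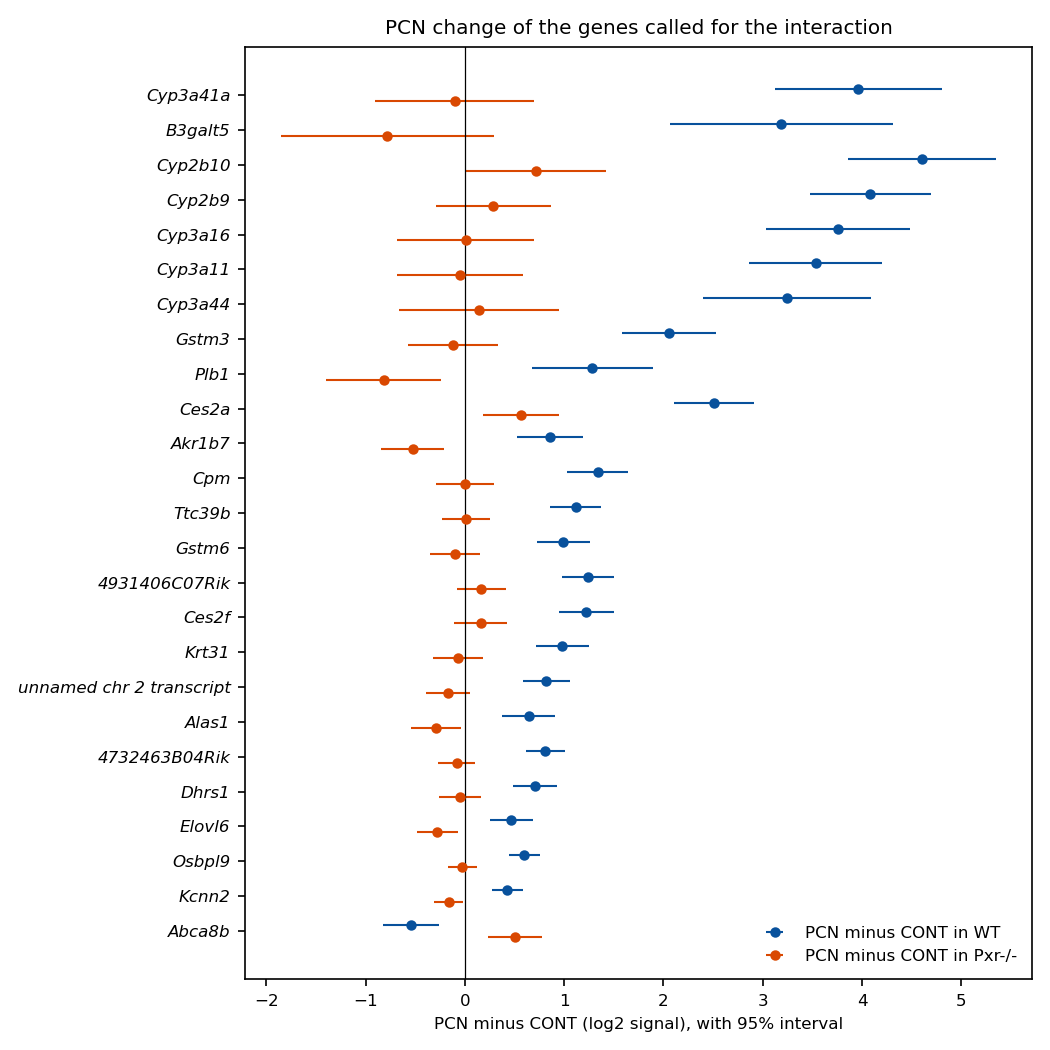
PCN change (log2 signal) of the 25 called genes in WT (blue) and *Pxr*-/- (orange) with 95% intervals, in the order of the interaction, each at its called probe with the largest interaction. In 17 genes the orange interval crosses 0, and *Abca8b* at the bottom is the gene with a decrease in WT and an increase in *Pxr*-/-.

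*Nr1i2* itself gave signal in all groups. The log2 signal of its probe was 11.82, 12.20 and 12.36 (lowest, median and highest) in WT CONT, and 12.53, 12.32, 11.57, 12.10 and 12.41 on the 5 WT PCN arrays. It was 11.42, 11.66 and 12.27 in *Pxr*-/- CONT and 11.38, 11.74 and 11.90 in *Pxr*-/- PCN. The 4 groups overlapped, and the interaction was 0.05 (95% interval -0.39 to 0.49, adjusted p = 0.999 in limma). Whether the probe lies in the deleted part of the gene was not analysed here, so the signal is no check of the genotype. *Nr1i3*, which encodes the related receptor CAR, had an interaction of -0.05 (95% interval -0.53 to 0.43). Fixed markers of ileal epithelium (*Vil1*, *Fabp6*, *Slc10a2*, *Fgf15*, *Cdx2* and *Epcam*) were well above background on 23 of 23 arrays.

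The promoters of *Cyp3a11*, *Cyp3a41a*, *Cyp3a44*, *Cyp2b10*, *Cyp2b9* and *Ces2a* are shown because these genes had large called interactions and known roles in drug metabolism. That of *Cyp3a16*, also called, is left out for space. Each line gives the 250 bases before the RefSeq transcription start in build GRCm38.p6, on the strand of the gene, and capitals mark the half-sites AGTTCA and AGGTCA (in the other orientation TGAACT and TGACCT) to which receptors of this class bind. The windows lie at chr5:145879855-145880104 (minus strand) for *Cyp3a11*, chr5:145720137-145720386 (minus) for *Cyp3a41a*, chr5:145805875-145806124 (minus) for *Cyp3a44*, chr7:25897408-25897657 (plus) for *Cyp2b10*, chr7:26173159-26173408 (plus) for *Cyp2b9* and chr8:104733753-104734002 (plus) for *Ces2a*.
Cyp3a11: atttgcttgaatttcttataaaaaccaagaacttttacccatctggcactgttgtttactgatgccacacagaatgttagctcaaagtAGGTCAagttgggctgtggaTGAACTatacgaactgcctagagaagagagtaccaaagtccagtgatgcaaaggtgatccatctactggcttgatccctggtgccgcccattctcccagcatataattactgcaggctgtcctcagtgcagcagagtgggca
Cyp3a41a: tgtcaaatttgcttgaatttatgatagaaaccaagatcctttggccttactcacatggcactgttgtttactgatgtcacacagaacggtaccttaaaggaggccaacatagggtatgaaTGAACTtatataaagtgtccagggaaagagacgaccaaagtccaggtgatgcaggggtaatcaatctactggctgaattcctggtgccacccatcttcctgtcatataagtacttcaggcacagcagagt
Cyp3a44: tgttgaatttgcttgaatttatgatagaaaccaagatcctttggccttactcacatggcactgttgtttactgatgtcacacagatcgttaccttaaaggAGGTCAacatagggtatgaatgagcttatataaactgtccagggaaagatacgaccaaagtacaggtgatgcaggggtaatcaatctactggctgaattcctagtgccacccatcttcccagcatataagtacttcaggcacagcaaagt
Cyp2b10: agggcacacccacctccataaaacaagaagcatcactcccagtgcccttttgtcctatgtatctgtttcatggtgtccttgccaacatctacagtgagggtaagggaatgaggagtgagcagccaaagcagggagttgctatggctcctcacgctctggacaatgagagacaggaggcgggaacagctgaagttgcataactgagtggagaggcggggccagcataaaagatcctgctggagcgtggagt
Cyp2b9: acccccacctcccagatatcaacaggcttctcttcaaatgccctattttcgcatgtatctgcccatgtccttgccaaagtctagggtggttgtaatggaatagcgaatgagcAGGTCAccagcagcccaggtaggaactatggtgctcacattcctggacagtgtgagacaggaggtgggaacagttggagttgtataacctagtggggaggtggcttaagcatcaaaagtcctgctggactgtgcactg
Ces2a: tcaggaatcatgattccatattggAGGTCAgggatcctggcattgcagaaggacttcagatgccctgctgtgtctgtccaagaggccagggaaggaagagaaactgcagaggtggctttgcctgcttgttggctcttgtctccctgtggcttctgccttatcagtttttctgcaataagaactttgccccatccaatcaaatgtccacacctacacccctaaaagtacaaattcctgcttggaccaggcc

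The *Cyp3a41a* and *Cyp3a44* windows were identical at 94.4% of aligned positions, and they were identical to that of *Cyp3a11* at 72.9% and 72.5%, respectively. *Cyp2b10* and *Cyp2b9* shared 71.4%, against 46.6% to 51.8% between a *Cyp3a* and a *Cyp2b* window shown. Of the 22 called genes with a window in the reference table, 3 held AGTTCA on either strand and 8 held AGGTCA, while 11.8% and 14.0% of all 32851 windows did. At least 1 of the half-sites was in 10 of the 22 and in 24.2% of all windows. Pairs of these half-sites as direct repeats with 3 or 4 bases between, or as everted repeats with 6 bases between, were in 0 of the 22 and in 0.0457% of all windows. The counts are of genes with a match in any of their windows, whereas the percentages are of single windows. A gene with several windows has more chances of a match, so counts and percentages cannot be compared directly. A match is a description of these letters, and sites further from the start were not searched.

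The *Cyp3a* genes encode the main drug-oxidizing P450 subfamily of liver and gut. Of the 8 members tested, 4 had a called interaction, where 0.104% of all genes did. The *Cyp3a11* signal was 6.94, 8.44 and 9.47 in WT CONT (lowest, median and highest), 11.01, 12.51, 12.12, 12.36 and 11.59 on the 5 WT PCN arrays, 6.38, 6.57 and 6.75 in *Pxr*-/- CONT and 6.17, 6.50 and 7.08 in *Pxr*-/- PCN. Every WT PCN array was above every other array, and the *Pxr*-/- groups overlapped. PCN raised *Cyp3a11* 11.6-fold in WT (log2 3.53), while the change in *Pxr*-/- was -0.05, and the interaction was 3.58 ± 0.44 (adjusted p = 0.000875 in limma).

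*Cyp3a41a* showed the largest interaction of all genes tested. Its signal was 8.86, 10.44 and 11.67 in WT CONT and 13.08, 14.81, 14.65, 15.09 and 14.09 on the WT PCN arrays, and in *Pxr*-/- it was 6.02, 6.47 and 7.08 with oil and 5.73, 6.41 and 7.15 with PCN. The WT PCN arrays were again above all others, and all WT CONT arrays were above all *Pxr*-/- arrays. The increase in WT was 15.6-fold and the change in *Pxr*-/- -0.10 (interaction adjusted p = 0.00182 in limma). Oil-treated *Pxr*-/- mice were 3.86 lower than oil-treated WT mice for this gene (adjusted p = 1.07e-05), and 1.81 lower for *Cyp3a11* (adjusted p = 0.00698), so that the genotypes differed without PCN.

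*Cyp3a16* and *Cyp3a44* had low signals in *Pxr*-/-. For *Cyp3a16* the WT PCN arrays read 10.34, 11.80, 11.63, 11.84 and 10.97, above WT CONT at 5.88, 7.58 and 8.82, while its probe was well above background on 0 of 6 *Pxr*-/- CONT arrays and 2 of 6 *Pxr*-/- PCN arrays. For *Cyp3a44* the WT PCN arrays read 10.40, 11.16, 10.74, 12.05 and 11.10, above WT CONT at 5.96, 8.06 and 8.78, and the probe was above background on 3 and 2 of 6 arrays of the *Pxr*-/- groups. A change in *Pxr*-/- could thus hardly be measured for this pair, and their interactions rested on the increase in WT (3.76 and 3.25). *Cyp3a* genes are close in sequence, and a probe may take up transcripts of a relative, so the values of single members are uncertain. The 60-base probe behind *Cyp3a11* is given for that reason, all in lower case.
Cyp3a11 probe: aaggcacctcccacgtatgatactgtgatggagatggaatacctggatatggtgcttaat

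The other 4 *Cyp3a* genes had positive interactions that did not pass the test. These were 1.84 for *Cyp3a59* (95% interval 0.82 to 2.87), 1.66 for *Cyp3a57* (0.57 to 2.76), 1.46 for *Cyp3a25* (0.33 to 2.58) and 0.39 for *Cyp3a13* (0.03 to 0.74). The first 3 were called for PCN in WT, with increases of 2.46, 2.33 and 2.23, and had changes of 0.62, 0.67 and 0.77 in *Pxr*-/-. Over the 8 members the median interaction was 2.47, against -0.01 for all genes, with 8 of 8 above 0. The family median within wash batch 1 was 3.39 and within wash batch 2 it was 1.67.

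**Figure D3:**
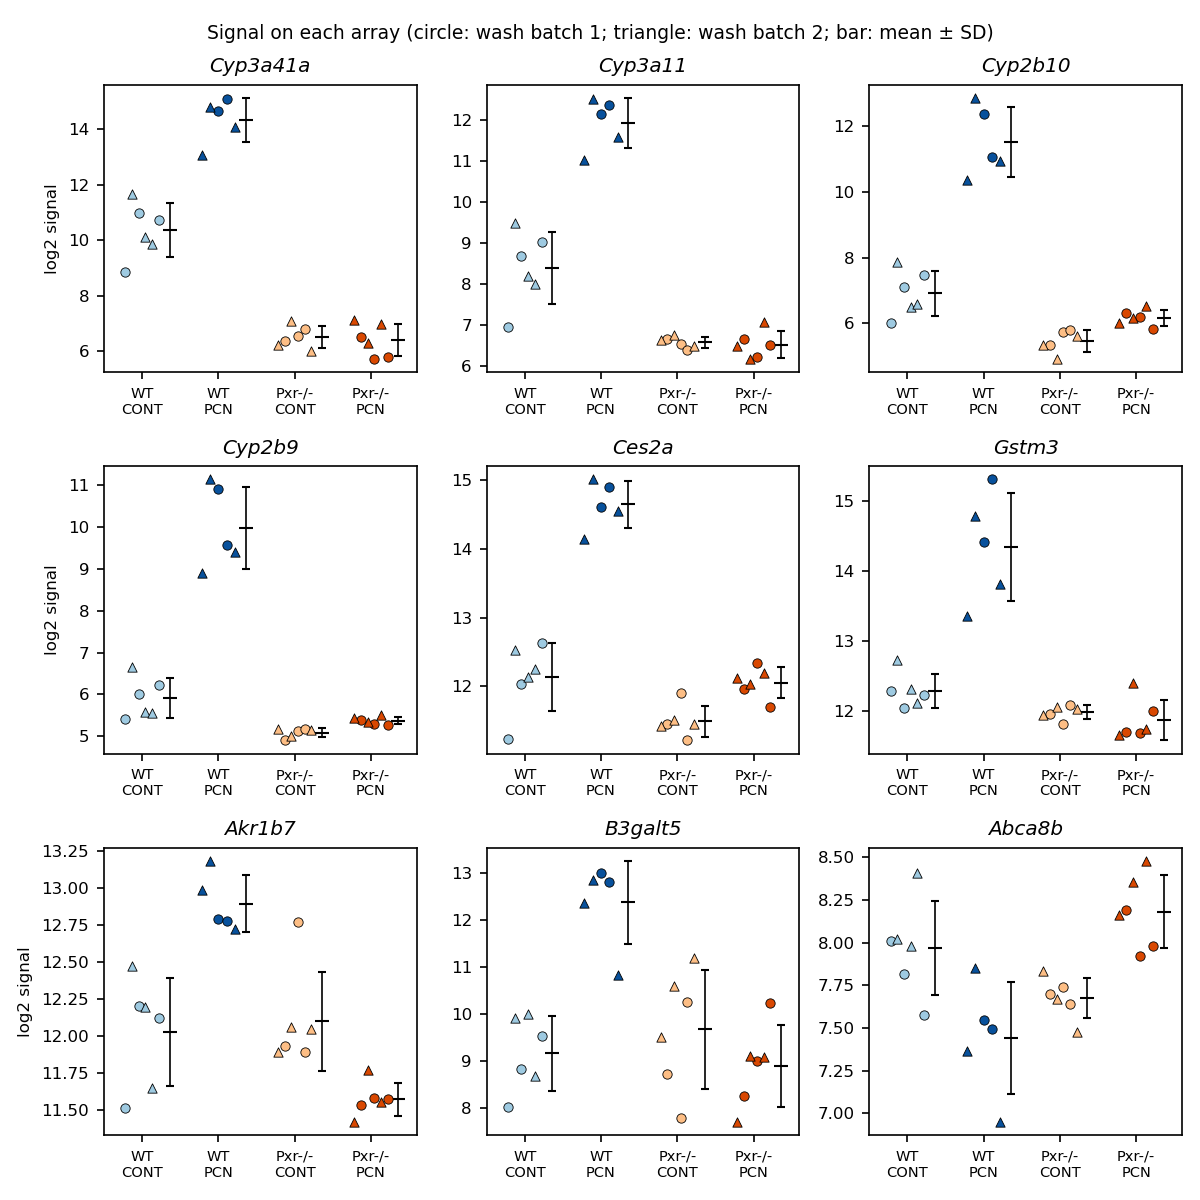
Log2 signal of 9 called genes on each of the 23 arrays, by group, with the mean and SD of each group beside the points (circles, wash batch 1; triangles, wash batch 2; each panel has its own y axis). The WT PCN arrays stand above all others for *Cyp3a41a*, *Cyp3a11*, *Cyp2b10*, *Cyp2b9*, *Ces2a* and *Gstm3*, 1 WT PCN array of *B3galt5* falls among the other groups, and *Abca8b* shows the opposite order.

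*Cyp2b10* and *Cyp2b9*, P450 enzymes best known as targets of CAR and also inducible through PXR, were the only *Cyp2b* genes of 5 that passed the filter on low signals, so that no count over that family is drawn. The *Cyp2b10* signal was 6.00, 6.85 and 7.86 in WT CONT, 10.35, 12.88, 12.37, 11.05 and 10.93 on the WT PCN arrays, 4.92, 5.48 and 5.81 in *Pxr*-/- CONT and 5.82, 6.18 and 6.53 in *Pxr*-/- PCN. The WT PCN arrays were above all others, and all 6 *Pxr*-/- PCN arrays were above all 6 *Pxr*-/- CONT arrays. The increase was 24.4-fold in WT, the change in *Pxr*-/- was 0.72 (adjusted p = 0.25 in limma), and the interaction had an adjusted p of 0.000875. A dimmer second probe passed the filter on low signals through WT PCN alone, so that its call for the interaction is no further support. It was well above background on 0 of 6 WT CONT, 1 of 6 *Pxr*-/- CONT and 0 of 6 *Pxr*-/- PCN arrays, and its increase in WT was at least 5.32-fold, the bound being set by the dimmest measured signals of those arrays.

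*Cyp2b9* read 5.42, 5.79 and 6.66 in WT CONT and 8.91, 11.15, 10.90, 9.57 and 9.41 on the WT PCN arrays, an increase of 4.08. Its probe was well above background on 0 of 6 *Pxr*-/- CONT arrays and 1 of 6 *Pxr*-/- PCN arrays, where it read from 4.90 to 5.51. No change in *Pxr*-/- can be given from such values, and its called interaction rested on the increase in WT.

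The *Cyp2c* family, whose members oxidize drugs and fatty acids, had a median interaction of 0.04. It held 0 called interactions among 11 genes, where 0.104% of all genes were called. *Cyp2c55* read 10.23, 11.46 and 12.85 in WT CONT, 14.19, 15.39, 15.41, 15.77 and 14.64 on the WT PCN arrays, 6.46, 6.68 and 7.69 in *Pxr*-/- CONT and 6.84, 8.40 and 9.91 in *Pxr*-/- PCN. The WT PCN arrays were above all others and the *Pxr*-/- groups overlapped. The PCN change was 3.51 in WT and 1.58 in *Pxr*-/-, and the interaction of 1.93 had an interval of 0.59 to 3.27 and did not pass the test (adjusted p = 0.787 in limma). It differed between the wash batches, at 4.00 in batch 1 and 0.15 in batch 2.

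Called interactions extended to enzymes of the next steps. *Ces2a*, an intestinal carboxylesterase, read 11.23, 12.19 and 12.62 in WT CONT, 14.15, 15.02, 14.62, 14.91 and 14.55 on the WT PCN arrays, 11.21, 11.45 and 11.89 in *Pxr*-/- CONT and 11.69, 12.07 and 12.33 in *Pxr*-/- PCN. The WT PCN arrays stood clear of the rest, while 5 of 6 *Pxr*-/- PCN arrays were above all *Pxr*-/- CONT arrays. The PCN change was 2.51 in WT (5.69-fold) and 0.56 in *Pxr*-/-, with an interaction of 1.95 ± 0.27 (adjusted p = 0.00182 in limma). *Ces2f* gave 1.06 ± 0.19, from changes of 1.22 and 0.16. Of 12 carboxylesterases tested these 2 were called, where 0.104% of all genes were, and the median interaction of the list was 0.11.

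Among the glutathione transferases, *Gstm3* and *Gstm6* of the mu class were called. *Gstm3* read 12.05, 12.26 and 12.73 in WT CONT, 13.36, 14.78, 14.42, 15.31 and 13.82 on the WT PCN arrays, 11.83, 12.00 and 12.08 in *Pxr*-/- CONT and 11.66, 11.73 and 12.40 in *Pxr*-/- PCN. Only WT PCN arrays exceeded 13, and the *Pxr*-/- groups overlapped. The interaction was 2.17 ± 0.32 (adjusted p = 0.00299 in limma), and it was 1.09 ± 0.18 for *Gstm6*, whose second probe gave 0.76 and did not pass (adjusted p = 0.194). Of 23 glutathione transferases, 6 were called higher with PCN in WT, where 0.807% of all genes were, and 0 in *Pxr*-/-, where 0.998% were. Among them 2 were called for the interaction, where 0.104% of all genes were, and the median interaction was 0.15. *Gsta2* (1.66, adjusted p = 0.224), *Gsta4* (0.96, adjusted p = 0.72), *Gstm1* (0.95, adjusted p = 0.091) and *Gstm4* (0.89, adjusted p = 0.142) were called in WT, and their interactions did not pass.

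*Akr1b7*, an aldo-keto reductase that reduces reactive aldehydes, had PCN changes of opposite sign in the 2 genotypes. It read 11.52, 12.16 and 12.47 in WT CONT and 12.99, 13.18, 12.79, 12.78 and 12.72 on the WT PCN arrays, all above WT CONT. It read 11.89, 11.99 and 12.77 in *Pxr*-/- CONT and 11.42, 11.57 and 11.77 in *Pxr*-/- PCN, all 6 below *Pxr*-/- CONT. The change of 0.86 was called in WT, that of -0.53 in *Pxr*-/- was not (adjusted p = 0.0549 in limma), and the interaction was 1.39 ± 0.22 (adjusted p = 0.00713). It was the only called gene among 33 aldo-keto reductases and aldehyde dehydrogenases, where 0.104% of all genes were called. The median interaction of that list was -0.04. *Dhrs1*, a short-chain dehydrogenase, gave 0.76 ± 0.15 from changes of 0.70 and -0.05.

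*Alas1*, the rate-limiting enzyme of heme synthesis, was the 1 called member of the 13 genes of heme synthesis and P450 electron supply (0.104% of all genes were called). Its brightest probe read 13.42, 13.56 and 13.81 in WT CONT, 14.51, 14.04, 14.31, 14.18 and 13.97 on the WT PCN arrays, 13.62, 13.77 and 13.80 in *Pxr*-/- CONT and 13.40, 13.65 and 13.90 in *Pxr*-/- PCN. The WT PCN arrays were above all others and the *Pxr*-/- groups overlapped (interaction 0.70 ± 0.13, adjusted p = 0.0359 in limma). A second probe gave 0.93 with the same adjusted p, and the remaining probe gave 0.86 and did not pass (adjusted p = 0.346). *Cyb5a*, the electron donor cytochrome b5, gave 0.69 and did not pass (adjusted p = 0.0531). *Por*, the P450 reductase, was called for PCN in WT (0.62) and had an interaction of 0.24, with an interval of -0.08 to 0.55.

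Conjugation by glucuronic acid and efflux gave 0 called interactions, where 0.104% of all genes were called. Over 11 UDP-glucuronosyltransferases the median was 0.12, and the largest value was 1.51 for *Ugt2a3* (adjusted p = 0.249 in limma), which was called in WT. Over 11 drug efflux transporters the median was 0.22, with 4 called higher with PCN in WT and 3 in *Pxr*-/- (0.807% and 0.998% of all genes). *Abcb1a*, which encodes the pump P-glycoprotein, was called in both genotypes with changes of 1.48 and 1.07, and its interaction was 0.41 (95% interval -0.09 to 0.91). *Abcb1b* was also called in both, at 1.60 and 0.95, with an interaction of 0.64 (0.15 to 1.14, adjusted p = 0.989 in limma). Within wash batches 1 and 2 the interaction was 0.91 and -0.05 for *Abcb1a*, and 1.12 and 0.23 for *Abcb1b*. WT CONT replicate 2, in batch 2, read high for both, at 15.03 (next array 14.24) and 11.95 (next 11.23). Without 1 array the interactions were 0.30 to 0.57 and 0.54 to 0.79.

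The remaining called genes have varied known roles. *B3galt5*, a galactosyltransferase of mucosal glycans, read 8.02, 9.18 and 10.01 in WT CONT, 12.38, 12.85, 13.01, 12.83 and 10.85 on the WT PCN arrays, 7.79, 9.89 and 11.20 in *Pxr*-/- CONT and 7.71, 9.04 and 10.25 in *Pxr*-/- PCN. WT PCN replicate 5 fell within the range of *Pxr*-/- CONT, and the spread in all groups was wide. Its interaction (adjusted p = 0.0359 in limma) was called in 7 of 23 fits that left out 1 array each, with adjusted p from 0.0092 to 0.109.

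*Cpm*, the membrane-bound carboxypeptidase M, read 10.00, 10.45 and 10.62 in WT CONT, 11.51, 11.64, 11.69, 11.90 and 11.81 on the WT PCN arrays, 9.92, 10.42 and 10.72 in *Pxr*-/- CONT and 10.06, 10.28 and 10.85 in *Pxr*-/- PCN. The 3 groups other than WT PCN overlapped fully, and the interaction was 1.34 ± 0.20 (adjusted p = 0.00467 in limma). *Plb1*, a brush border phospholipase, gave 2.10 ± 0.40 at 1 probe (adjusted p = 0.0407) and 1.95 at its brightest probe, which did not pass (adjusted p = 0.0832). Its PCN change at the called probe was 1.29 in WT and -0.82 in *Pxr*-/-.

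Smaller interactions were called for *Ttc39b* (1.11 ± 0.17), *4931406C07Rik* (1.08 ± 0.17), the hair keratin *Krt31* (1.05 ± 0.18), an unnamed transcript of chromosome 2 (0.99 ± 0.16), *4732463B04Rik* (0.89 ± 0.13), the fatty acid elongase *Elovl6* (0.75 ± 0.14), the lipid-binding protein *Osbpl9* (0.62 ± 0.10) and the potassium channel *Kcnn2* (0.59 ± 0.10). The highest adjusted p among the 24 genes was 0.0432. The other *Kcnn2* probe went the opposite way, at -0.32 (95% interval -0.60 to -0.04), and did not pass. *Osbpl9* was called at a dimmer probe, and its brightest probe gave 0.47 (adjusted p = 0.197 in limma). A dimmer *4931406C07Rik* probe gave 1.18 and did not pass (adjusted p = 0.0734 in limma). *Ttc39b* read 7.37, 7.51 and 7.77 in WT CONT and 8.77, 8.68, 8.32, 8.73 and 8.81 on the WT PCN arrays, while the median was 7.97 in both *Pxr*-/- groups.

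*Abca8b*, an ABC transporter of the A subfamily, was the gene with the opposite direction. It read 7.58, 7.99 and 8.41 in WT CONT, 7.37, 7.85, 7.55, 7.49 and 6.95 on the WT PCN arrays, 7.48, 7.68 and 7.83 in *Pxr*-/- CONT and 7.92, 8.17 and 8.48 in *Pxr*-/- PCN. All 6 *Pxr*-/- PCN arrays were above all *Pxr*-/- CONT and WT PCN arrays, while the WT groups overlapped. The changes were -0.54 in WT and 0.50 in *Pxr*-/-, neither past the fold threshold, and the interaction was -1.05 ± 0.19 (adjusted p = 0.0232 in limma). Without WT CONT replicate 1, WT PCN replicate 1, *Pxr*-/- CONT replicate 6 or *Pxr*-/- PCN replicates 2 or 3, no gene was called in this direction.

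Several strong PCN effects were shared by the genotypes. *Krt14* rose by 2.81 in WT and 2.53 in *Pxr*-/- (interaction 0.28, interval -0.59 to 1.15), and the bone morphogenetic protein antagonist *Chrdl2* by 2.75 and 2.17 (0.57, -0.09 to 1.23). The alarmin *S100a9* rose by 2.16 and 2.91 (-0.75, -2.07 to 0.57) and its partner *S100a8* by 1.64 and 2.54 (-0.90, -2.04 to 0.23). *Retnla* fell by 1.34 in WT and 1.26 in *Pxr*-/- (-0.08, -0.97 to 0.81). The galanin receptor *Galr2* fell by 1.34 and 0.90 (-0.45, -0.90 to 0.01), and the betaine methyltransferase *Bhmt* by 2.13 and 1.25 (-0.88, -1.93 to 0.18). These intervals are wide and do not show that the responses were equal. The beta-defensin *Defb39* rose by 3.79 in WT and 1.47 in *Pxr*-/-. Its interaction of 2.32 (1.12 to 3.52) did not pass (adjusted p = 0.252 in limma), and the adjusted p was 0.077 to 0.471 without 1 array. It was called at 3.0 (adjusted p = 0.0155) without *Pxr*-/- PCN replicates 1 and 5, the arrays with the highest *Spp1* signals of their group. That pair was chosen after the data were seen, so the call is no further support.

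Across 48 gene lists that covered 695 tested genes, 8 lists held a called gene and 40 held none. The lists held 13 called genes, where 0.104% of all genes tested were called. At that share, 0 called genes in a single list is no result about its members. Of the cholesterol synthesis and SREBP2 targets 23 of 24 genes lay above 0, with a median interaction of 0.53, against 47.2% of genes above 0 and a median of -0.01 over all genes. The interaction was called for 0 of the 24. The unadjusted p in limma was under 0.05 for 19 of them, against 1689 of all 37591 probes tested. The PCN change had a median of 0.17 in WT and -0.31 in *Pxr*-/-. In *Pxr*-/- 3 of the 24 genes were called lower, where 0.311% of all genes were. Among these were *Lss* (lanosterol synthase) and *Idi1* (isopentenyl diphosphate isomerase). *Idi1* had an interaction of 0.77 (adjusted p = 0.249 in limma) and *Hmgcs1*, an early enzyme of the pathway, 0.61 (adjusted p = 0.198).

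The mean signal of the 24 genes was 12.23 to 12.40 in WT CONT and 12.24 to 12.59 in *Pxr*-/- CONT. It was 12.52, 12.53, 12.79, 12.15 and 12.30 on the WT PCN arrays and 11.96 to 12.24 in *Pxr*-/- PCN. All *Pxr*-/- PCN arrays were thus below all *Pxr*-/- CONT arrays, whereas WT PCN arrays lay on both sides of WT CONT. The median interaction was 0.44 within wash batch 1 and 0.58 within wash batch 2. Without WT PCN replicate 4, the lowest of its group, 5 of the 24 genes were called, where 32 of all 24151 genes were. Leaving out the lowest array raises the WT PCN mean, so this number is no further support.

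**Figure D4:**
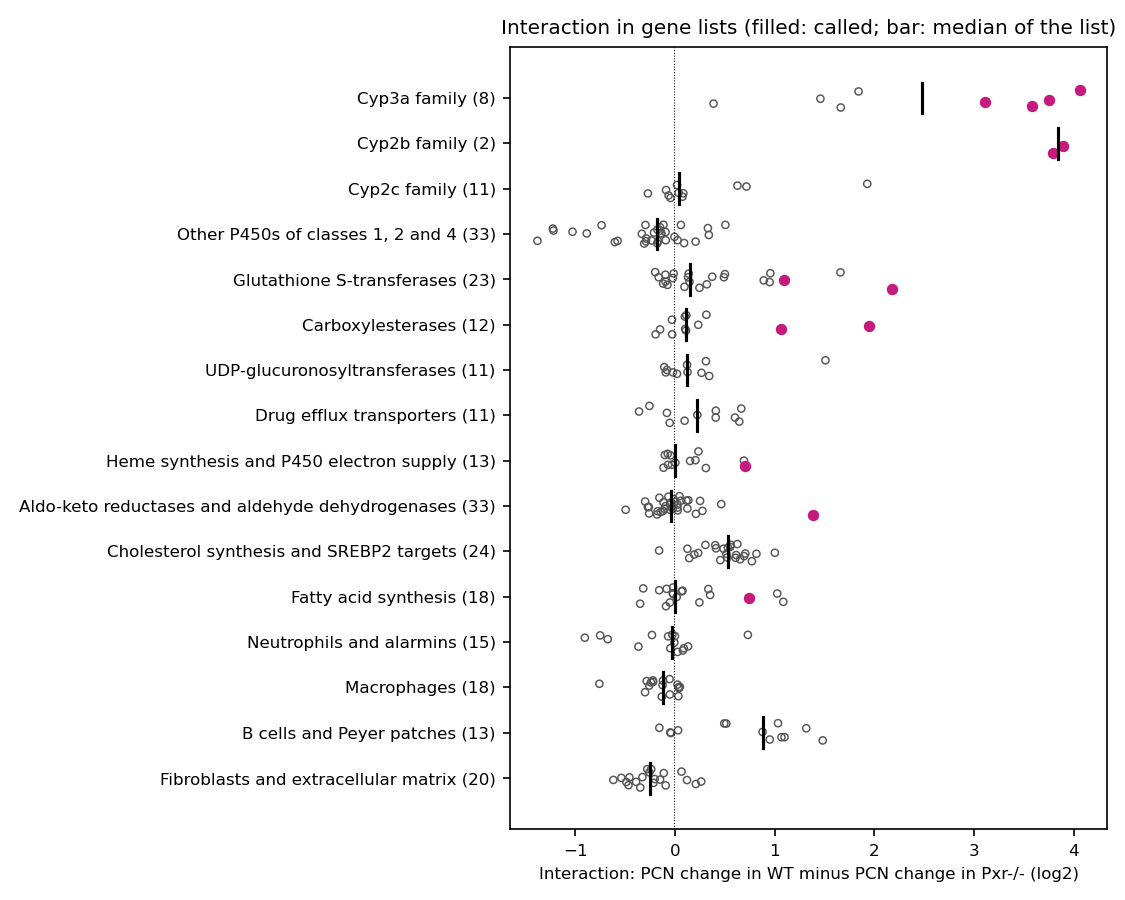
Interaction (log2, x axis) of each tested member of 16 gene lists, with the number of members after each name, filled points for called genes and a bar at the median of the list. *Cyp3a* members all lie above 0, called transferases and carboxylesterases lie apart from list medians near 0, and the cholesterol list is shifted to the right around 0.53 with 0 called genes.

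Of 33 other P450 genes of classes 1, 2 and 4, 26 lay below 0 and 7 above, where 47.2% of all genes lay above 0. Their median was -0.18 and 0 were called, where 0.104% of all genes were. The lowest were *Cyp2d40* (-1.38), *Cyp2d10* (-1.23) and *Cyp2d26* (-1.22). *Cyp2d40* was called higher with PCN in *Pxr*-/- (1.46), against 0.08 in WT. It was 1 of 33, where 0.998% of all genes were called higher in *Pxr*-/-. Among 16 genes of the fixed glucocorticoid receptor list and 17 NRF2 targets, the medians were 0.21 and 0.04. The 1 called gene was *Gstm3* in the NRF2 list, where 0.104% of all genes were called. *Fabp6*, the ileal bile acid binding protein, had an interaction of 0.08 (interval -0.16 to 0.31), and *Fgf15*, the hormone of bile acid feedback, 1.81 with an interval of -0.14 to 3.77.

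Genes of other cell types also differed between arrays. The mean signal of 13 B cell and Peyer patch genes was 7.28 to 7.45 in WT CONT, 7.20 to 7.55 in *Pxr*-/- CONT and 7.40 to 8.54 in *Pxr*-/- PCN, and on the WT PCN arrays it was 7.60, 9.64, 9.59, 7.62 and 7.59. Replicates 2 and 3 of WT PCN thus stood apart. The median interaction of that list was 0.88, and -0.19 without them, and 0 members were called. The direction of that fall was fixed by the choice of these arrays, which had the highest values of the list in their group. In whole tissue, fewer cells of a type and less RNA per cell cannot be told apart. Without these 2 arrays 15 genes were called for the interaction, 13 of them among the 25. *Cyp3a41a*, *Cyp3a11*, *Cyp3a16*, *Cyp2b10*, *Cyp2b9*, *Ces2a* and *Gstm3* were all among the 13. The interaction was then 3.16 for *Cyp2b10* and 3.10 for *Cyp2b9*, against 3.89 and 3.80 on all arrays. In WT PCN, replicates 2 and 3 had the highest signals of both genes.

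The neutrophil and alarmin list was at 7.01 to 7.51 in the CONT groups, at 7.52 to 7.99 in WT PCN and at 7.63 to 8.32 in *Pxr*-/- PCN. The macrophage list was at 9.80 to 10.23 in WT PCN and 9.94 to 10.42 in *Pxr*-/- PCN. Both lists had overlapping PCN groups and medians of interaction of -0.03 and -0.12, with 0 called. Fibroblast and matrix genes had a median of -0.25, with 8 of 20 called higher with PCN in *Pxr*-/- and 3 in WT (0.998% and 0.807% of all genes). All 17 cytotoxic T and NK cell genes lay above 0 with a median of 0.28, which was -0.05 within wash batch 1 and 0.52 within batch 2. It was 0.05 without *Pxr*-/- PCN replicate 5, and without replicates 1 and 5 of that group 9 of the 17 lay above 0. With the level of the B cell list as a covariate, 19 genes were called, 18 of them among the 25. The part of the other cell types in the interactions was not tested beyond the fits without the arrays named.

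The arrays were washed in 2 batches, each with 3 arrays of every group except for 2 WT PCN arrays in batch 1. All 29 called probes had the same sign in both batches, with a median size of 1.37 in batch 1 and 1.21 in batch 2. These probes were called on the arrays of both batches together, so the shared sign is no separate support. Of the 24 genes higher in WT, 20 had the smaller interaction in batch 2, among them *Cyp3a41a* (5.24 and 3.08), *Cyp3a16* (4.68 and 2.97), *Gstm3* (2.83 and 1.68) and *Ces2a* (2.32 and 1.62). *B3galt5* (3.89 and 4.28) and *Ttc39b* (0.91 and 1.25) were larger in batch 2. This difference between batches was not tested. *Pxr*-/- PCN replicates 1 and 5, with the highest *Spp1* signals of their group, were both in batch 2.

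**Figure D5:**
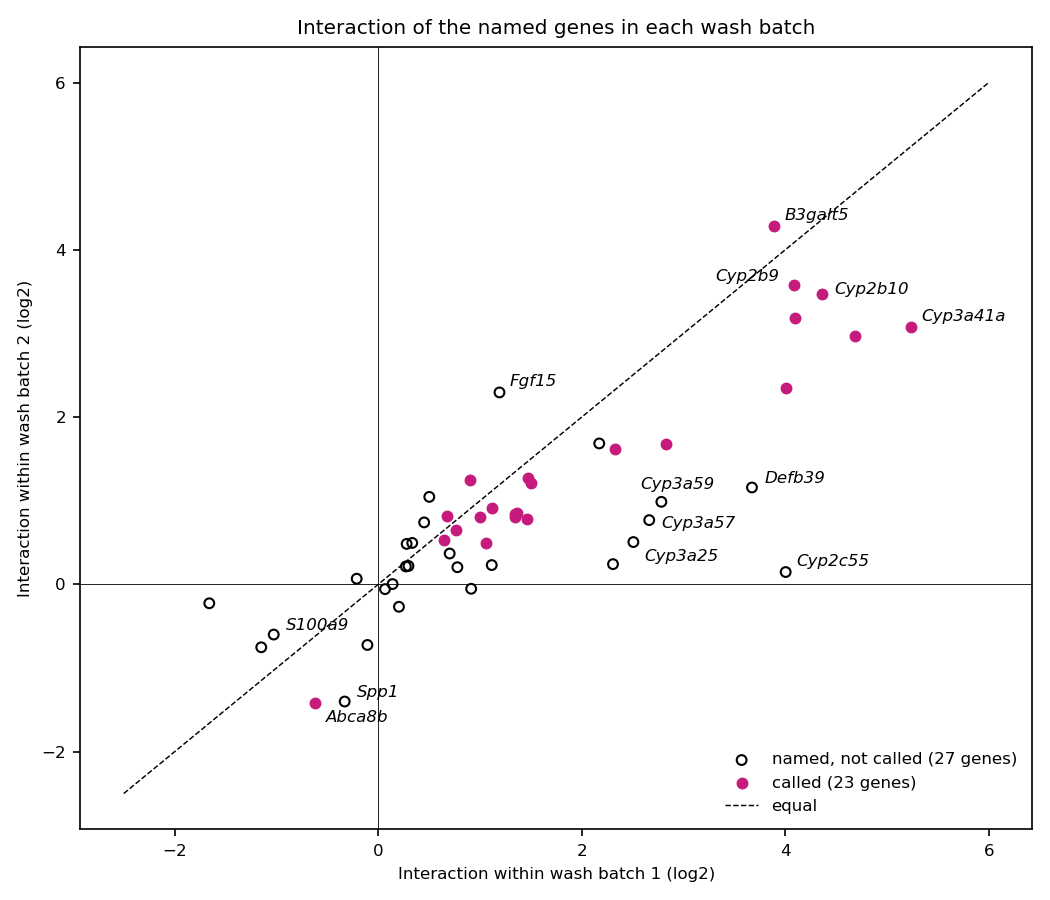
Interaction (log2) of the 50 named genes within wash batch 1 (x axis) and within wash batch 2 (y axis), with filled points for the 23 genes called at the brightest probe and a dashed line of equal values. Called genes lie in the upper right or, for *Abca8b*, the lower left, whereas *Cyp2c55* (4.00 and 0.15) has its interaction mostly in batch 1.

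Calls rested on 5 WT PCN arrays and on low signals in *Pxr*-/- for some genes. Of the 29 called probes, 23 were well above background on all arrays of both *Pxr*-/- groups, 3 were so on under 50% of the arrays of both, and 22 had all 5 WT PCN arrays beyond the other 18. Of the 25 genes, 15 were called in all 23 fits without 1 array, and *Cyp3a44* and *Abca8b* in 18, *Kcnn2* in 14, *Alas1* and *Plb1* in 7, and *Elovl6* and *Dhrs1* in 5.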

How the data were processed

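Gene expression in the ileum was measured with 1-colour Agilent oligonucleotide arrays (62976 spots, 59305 not controls, 56605 probes), 1 per mouse, from 150 ng of total RNA. Per the file headers, the scanner values deposited by the authors are intensity, the linear brightness of each spot, read with Agilent Feature Extraction 10.10.1.1 per the submitters' processing notes. A processed matrix deposited by the authors holds log2 values that were filtered, corrected for wash batch and normalized with CrossNorm, and it was used as an alternative.

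Median spot signals, without background subtraction, were put on the log2 scale after removal of control and outlier spots. Spots of a probe were averaged and the 23 arrays quantile normalized. Tested were probes that the scanner software called well above background on 50% or more of the arrays in any group (37591 probes, 24151 genes and unnamed transcripts). Names came from RefSeq, with 32994 probes matched by accession, 10224 by array name and 520 through older symbols, and 12867 were left unmatched. The package limma 3.58.1 (R 4.3.3, with data.table at version 1.17.8) fitted the 4 groups and the wash batch to all arrays, with 2-sided moderated tests and Benjamini-Hochberg adjustment over all probes. The threshold of a call was an adjusted p of 0.05 and a 1.5-fold difference. The tests set each difference against the spread between mice of a group, with 1 array per mouse. The script was tested on simulated data.

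Named were *Nr1i2*, the 15 largest positive and 10 largest negative called interactions, called list members, the *Cyp3a* and *Cyp2b* families, a list of single genes (of which *Gsta1* and *Ugt1a1* were not among the genes tested), and the 5 largest effects shared by both genotypes. Values are those of the brightest tested probe of a gene unless another is named, and genes called at another probe were added after their values were seen. The genes and lists were chosen with earlier results of these data known. Alternatives covered background, scaling, filter, batch, slide, replicate block, weights and each array left out. The 2 fits without a pair of arrays were chosen after seeing the data. Arrays had 62.7% to 68.8% of probes above background, and their number limits the precision. 8 slides were used.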

Additional observations from a re-analysis of the deposited data

Results flagged for a closer look

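The 25 called interactions are differences between the genotypes in the effect of PCN. Their values, at the called probe with the largest interaction, were 4.06 for *Cyp3a41a*, 3.97 for *B3galt5*, 3.89 for *Cyp2b10*, 3.80 for *Cyp2b9*, 3.75 for *Cyp3a16*, 3.58 for *Cyp3a11*, 3.11 for *Cyp3a44*, 2.17 for *Gstm3*, 2.10 for *Plb1*, 1.95 for *Ces2a*, 1.39 for *Akr1b7*, 1.34 for *Cpm*, 1.11 for *Ttc39b*, 1.09 for *Gstm6*, 1.08 for *4931406C07Rik*, 1.06 for *Ces2f* and 1.05 for *Krt31*. The smaller ones were 0.992 for an unnamed transcript of chromosome 2, 0.93 for *Alas1*, 0.892 for *4732463B04Rik*, 0.755 for *Dhrs1*, 0.747 for *Elovl6*, 0.624 for *Osbpl9* and 0.592 for *Kcnn2*, and the value was -1.05 for *Abca8b*.

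Among 200 groups of arrays of the named genes, 13 held 1 array that stood apart from the rest by Dixon's ratio, the gap to the nearest array divided by the range of the group, and chance gives about 1 in 20. WT CONT replicate 2 was high for *Abcb1a* (0.869) and *Abcb1b* (0.853), and WT CONT replicate 5 was high for *Spp1* (0.809). WT PCN replicate 3 was low for *Ttc39b* (0.741). In *Pxr*-/- CONT, replicate 4 was high for *Akr1b7* (0.807) and low for *Cyp3a13* (0.692), replicate 2 was high for *4931406C07Rik* (0.698), and replicate 6 was low for *Elovl6* (0.631) and *Nr1i3* (0.625). In *Pxr*-/- PCN, replicate 2 was low for *Osbpl9* (0.868), replicate 5 was low for *Bhmt* (0.728) and high for *Por* (0.629), and replicate 6 was low for *Nr1i2* (0.675).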

How the results depend on the processing

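Of the 25 called genes, 8 were called under all 15 other settings tried on all arrays and in all 23 fits without 1 array (*Cyp3a41a*, *Cyp3a11*, *Cyp2b10*, *Cyp2b9*, *Ces2a*, *Ttc39b*, *Krt31* and *4931406C07Rik*). The number called was 14 with slide as a fixed block (11 higher and 3 lower in WT), 3 within wash batch 1 (3 and 0) and 0 within wash batch 2 (0 and 0 by limma on fewer arrays, with an unadjusted p under 0.05 at 2272 probes), 0 lower with the processed signal, and 18 to 32 without 1 array (18 to 30 higher, 0 to 2 lower). It was 15 (14 higher) without WT PCN replicates 2 and 3, and 0 were lower without *Pxr*-/- PCN replicates 1 and 5. The highest number, 32, came without WT PCN replicate 4. The number of genes called for PCN in WT was 178 to 248 without 1 array and 426 without a fold threshold. The number of genes called for PCN in Pxr-/- was 206 to 385 without 1 array, 121 without *Pxr*-/- PCN replicates 1 and 5, and 1199 without a fold threshold. Some interactions that were not called changed sign. *Retnla* was 0.29 with slide, 0.36 with the B cell level as a covariate, 0.014 with array weights, 0.068 within batch 2, 0.43 without WT PCN replicates 2 and 3, and -0.31 to 0.12 without 1 array. *Nr1i2* was -0.017 with slide, -0.056 within batch 2 and -0.091 to 0.20 without 1 array. *Nr1i3* was 0.029 with weights, 0.20 within batch 1, 0.15 without *Pxr*-/- PCN replicates 1 and 5, and -0.15 to 0.11 without 1 array. *Abcb1a* was -0.052 within batch 2 and *Fabp6* -0.030 without WT PCN replicates 2 and 3. *Spp1* was 0.43 without *Pxr*-/- PCN replicates 1 and 5, a direction fixed by the choice of these arrays, which had its highest signals in their group. The cause of the other changes was not tested. Mice of the same replicate number were separate animals and did not deviate together (33 pairs, correlation -0.20 to 0.43, 6 over 0.1), and a replicate block left 20 of the 25 genes called.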
